A study of Rattus norvegicus with 18 samples.

Results

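Expression of 2 genes, Ppargc1a (ENSRNOG00000004473) and Vegfa (ENSRNOG00000019598), was followed in the gastrocnemius muscle of 18 male rats. They were chosen by identifier as regulators of endurance and are 2 of the 32882 genes in the count tables. The count tables hold identifiers without gene symbols, so the symbols came from the description given with the identifiers, and the pairing was not checked against an annotation. Both genes passed the filter on low counts in both experiments.

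Ppargc1a encodes PGC-1alpha, a transcriptional coactivator that partners with nuclear receptors and other factors to switch on genes of mitochondrial biogenesis and oxidative metabolism in muscle. Vegfa encodes VEGF-A, a secreted ligand that acts on receptors of endothelial cells and is required for capillary growth and maintenance in muscle. Vegfa is a known target of PGC-1alpha, acting with the nuclear receptor ERRalpha, and is also a target of the hypoxia-inducible factors. In muscle, both transcripts are known to rise for hours after a bout of exercise and then to return towards their resting level.

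All lines were derived from the genetically heterogeneous N:NIH rat stock. The HCR line (high capacity runners) and the LCR line (low capacity runners), of generation 33, were bred for running capacity in the untrained state, and their muscles were archived frozen samples. The high and low responder lines, of generation 15, were bred for the gain in running distance that training gives. HRT and LRT rats of these lines were left untrained, and HRTT and LRTT rats ran on a treadmill on 3 days per week for 8 weeks. Responder rats were first tested at 10 to 12 weeks of age, trained and untrained rats were tested again at the end, and muscle was taken 48 hours after that last test. Each group held 3 rats with 1 library each. For HCR and LCR the time from the last run to dissection is not given in the sources used here. Each contrast between selected lines compares 1 bred line with 1 other, so selection and drift between lines cannot be told apart. The muscle markers chosen for this tissue could not be looked up in the counts, because symbols were not paired with the identifiers of the count tables.

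The 250 bases before 1 annotated transcription start of each gene are shown because the levels of the 2 genes were correlated over the 12 responder rats, as described below. The sequences are from RefSeq on the GRCr8 build, on the plus strand and read 5′ to 3′, and this build is not the one the counts were made on. The Vegfa start is the first base of its RefSeq locus, whereas the Ppargc1a start is an internal one, and that locus begins further upstream. Capitals mark the cAMP response element TGACGTCA in Ppargc1a and the GC box GGGCGG in Vegfa.
Ppargc1a, chr14:63634058-63634307: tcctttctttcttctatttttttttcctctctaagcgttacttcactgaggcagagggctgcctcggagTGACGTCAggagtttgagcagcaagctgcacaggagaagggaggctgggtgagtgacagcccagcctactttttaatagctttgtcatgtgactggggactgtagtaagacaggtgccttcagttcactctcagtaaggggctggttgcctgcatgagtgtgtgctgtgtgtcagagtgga
Vegfa, chr9:22452604-22452853: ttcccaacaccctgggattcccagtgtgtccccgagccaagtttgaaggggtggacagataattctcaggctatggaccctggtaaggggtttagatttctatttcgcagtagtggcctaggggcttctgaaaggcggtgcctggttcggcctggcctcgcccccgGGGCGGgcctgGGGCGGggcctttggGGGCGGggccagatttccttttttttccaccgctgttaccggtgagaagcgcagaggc

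The Ppargc1a window held 1 cAMP response element, 181 to 174 bases before the start. On either strand this motif was found in 531 of 33469 rat promoter windows of this length, or 1.59%. Its shorter core TGACG, which the full palindrome contains on both strands, was found in 18.2% of windows. The Vegfa window held 3 GC boxes, which began 84, 73 and 58 bases before the start, a motif found in 30.5% of windows. The hypoxia response cores ACGTG (16.6% of windows) and GCGTG (25.9%) were not among the letters of either window. The ERR motif AAGGTCA (3.99% of windows) was absent from both as well, and had 1 match, on the opposite strand, before a second Vegfa start in the RefSeq table. The motifs were picked with the sequences in view, and a match is a description of letters and not of a bound site. Only windows directly before annotated starts were searched, so an absence says nothing about sites elsewhere in or around either gene.

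Library totals ranged from 31869042 to 42172690 counts for HCR and LCR and from 25084058 to 41446415 for the responder lines, and 13138 and 13478 genes were tested. Levels are in CPM, the counts of a gene per 1000000 counts of the TMM-scaled library total, and the 2 experiments were scaled separately. CPM is not divided by transcript length, so levels were not compared between the 2 genes. Ppargc1a stood at the 53.3rd to 69.0th percentile of tested genes in a library, and Vegfa at the 91.6th to 98.0th. LCR replicate 2 stood apart from the other HCR and LCR libraries, with a TMM factor of 0.882. Its score on the first principal axis was 44.4, where the others lay between -28.9 and 3.57. The Vegfa fold change and the relation of the 2 genes are given without it as well. Measures of spread and of the share between groups include it.

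Intrinsic running capacity was compared first. Ppargc1a was lower in HCR than in LCR rats, with no overlap between the groups, but the difference did not pass the test over all genes. In HCR rats Ppargc1a was at 11.8, 13.7 and 16.1 CPM in replicates 1 to 3, from 416, 421 and 689 counts. In LCR rats it was at 16.4, 19.3 and 21.4 CPM, from 591, 572 and 863 counts. The means were 13.9 ± 2.15 and 19.1 ± 2.52 CPM (SD, n = 3 each). The highest HCR rat and the lowest LCR rat were nearly level, and the 95% counting intervals of their levels, 14.9 to 17.4 and 15.1 to 17.8 CPM, overlapped over most of their length. The log2 fold change of HCR over LCR was -0.46 (SE 0.178, 95% interval -0.87 to -0.05), which is a fold of 0.728. By the quasi-likelihood test of edgeR its unadjusted p was 0.033, and its Benjamini-Hochberg adjusted p over all tested genes was 0.735. This unadjusted p was 0.0962 without HCR replicate 1, 0.0687 without HCR replicate 2, 0.0515 without LCR replicate 2 and 0.108 without LCR replicate 3. It was 0.0228 without HCR replicate 3 and 0.0282 without LCR replicate 1. Groups that did not overlap were found for 12.3% of all tested genes, and 6.55% had an unadjusted p under 0.05, so a gene with the pattern of Ppargc1a was not rare in these libraries. With calls made at a fold change above 1.5 and an adjusted p under 0.05, 0.0304% of genes were called (4 genes by edgeR, and 78 by DESeq2), and Ppargc1a and Vegfa were not among them in either tool.

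Vegfa had the opposite direction of means between these lines, with wide overlap. In HCR rats it was at 179, 293 and 339 CPM, and in LCR rats at 238, 98.1 and 256 CPM. The means were 270.3 ± 82.5 and 197 ± 86.5 CPM (SD, n = 3 each). The LCR rat at 98.1 CPM, replicate 2, was the lowest of all 18 rats, while the other LCR rats lay inside the HCR range. The log2 fold change of HCR over LCR was 0.45 (SE 0.383, 95% interval -0.43 to 1.34), with an edgeR adjusted p of 0.875. Without LCR replicate 2 the log2 fold change was 0.11, so the size of the difference depended on that library.

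In untrained rats of the responder lines, Ppargc1a was about level and Vegfa had a higher mean in HRT, and the groups overlapped for both genes. Ppargc1a was at 20.1, 13.3 and 12.2 CPM in HRT rats (mean 15.2 ± 4.28, SD, n = 3). It was at 11.3, 18.9 and 16.8 CPM in LRT rats (mean 15.7 ± 3.92, SD, n = 3). Each line thus had 1 or more rats near 20 CPM and 1 or more near 12 CPM. Vegfa was at 293, 206 and 145 CPM in HRT rats (mean 215 ± 74.2, SD, n = 3). It was at 123, 214.5 and 168 CPM in LRT rats (mean 168.5 ± 45.8, SD, n = 3). The log2 fold change of HRT over LRT was -0.04 (SE 0.282, 95% interval -0.66 to 0.57) for Ppargc1a and 0.35 (SE 0.376, -0.48 to 1.18) for Vegfa. Without HRT replicate 1 the Vegfa value was 0.08, and without LRT replicate 2 the Ppargc1a value was 0.12. The edgeR adjusted p was 0.975 for Ppargc1a and 0.781 for Vegfa. Of all genes, 0.00742% were called by edgeR (1 gene, and 20 by DESeq2) and 16.2% had groups that did not overlap.

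After 8 weeks of training the low responder line showed no change that passed the test in either gene. Ppargc1a was at 17.6, 13.6 and 10.6 CPM in LRTT rats (mean 13.9 ± 3.51, SD, n = 3), a range that overlapped that of LRT. Vegfa was at 312, 187 and 114.5 CPM in LRTT rats (mean 204.5 ± 100.1, SD, n = 3). LRTT replicate 1 held the highest Vegfa level of the 12 responder rats and LRTT replicate 3 the lowest, so the trained group of 3 spanned the whole range of the experiment. The log2 fold change of LRTT over LRT was -0.17 (SE 0.283, 95% interval -0.79 to 0.45) for Ppargc1a and 0.28 (SE 0.375, -0.55 to 1.11) for Vegfa. Both had an edgeR adjusted p of 0.989. Without LRTT replicate 1 the Vegfa value was -0.17, the opposite direction, and the Ppargc1a value was -0.38. Without LRTT replicate 3 the Ppargc1a value was -0.0043. Of all genes, 0% were called by edgeR in this comparison and 9.82% had groups that did not overlap, while 565 had an unadjusted p under 0.05 and DESeq2 called 8.

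The high responder line likewise showed no change in either gene that passed the test. Ppargc1a was at 21.7, 14.2 and 11.97 CPM in HRTT rats (mean 15.97 ± 5.12, SD, n = 3), nearly the spread of the untrained HRT rats. Vegfa was at 249, 152 and 157 CPM in HRTT rats (mean 186 ± 54.6, SD, n = 3), inside the HRT range. In both HRT and HRTT, 1 rat of 3 was well above the others for Ppargc1a. The log2 fold change of HRTT over HRT was 0.07 (SE 0.282, 95% interval -0.55 to 0.69) for Ppargc1a and -0.21 (SE 0.375, -1.04 to 0.62) for Vegfa. Both had an edgeR adjusted p of 1. Without HRT replicate 1 the Vegfa value was 0.08, and without HRTT replicate 1 the Ppargc1a value was -0.20, so each direction depended on single libraries. Of all genes, 0% were called by edgeR and 8.39% had groups that did not overlap, while 335 had an unadjusted p under 0.05 and DESeq2 called 2.

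**Figure D1:**
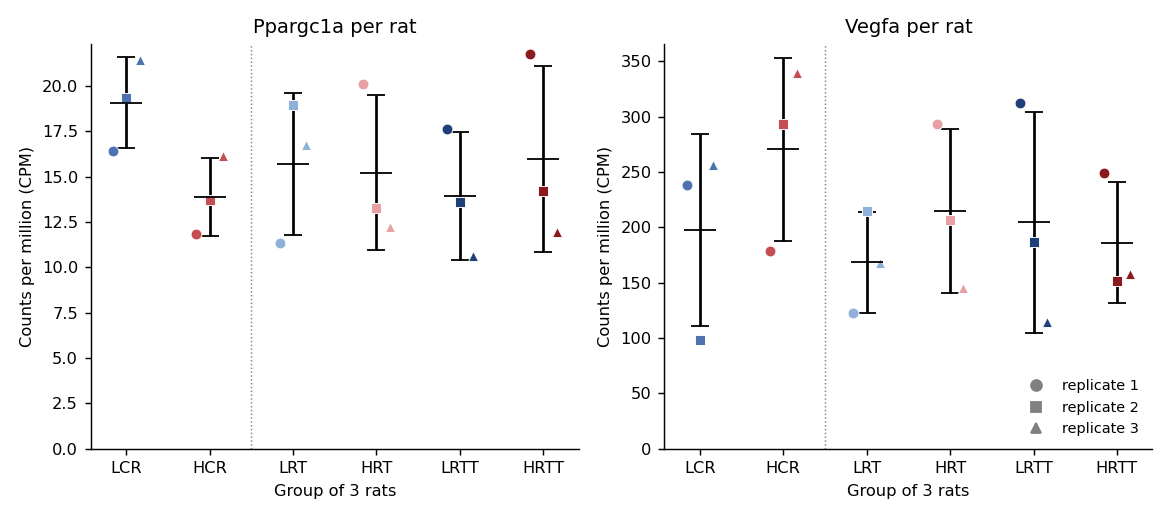
Level of Ppargc1a (left) and Vegfa (right) in CPM for each rat, by group, with the mean as a horizontal bar and the SD as whiskers (n = 3). The dotted line separates the 2 experiments, which were scaled separately. Ppargc1a in HCR and LCR is the 1 pair compared in which the groups do not overlap, with 16.1 CPM in the highest HCR rat and 16.4 CPM in the lowest LCR rat.

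The trained lines were also set against each other. The log2 fold change of HRTT over LRTT was 0.20 (SE 0.283, 95% interval -0.42 to 0.82) for Ppargc1a and -0.14 (SE 0.375, -0.96 to 0.69) for Vegfa, with the groups overlapping. Without HRTT replicate 1 the Ppargc1a value was -0.06, and without LRTT replicate 1 the Vegfa value was 0.32, each in the opposite direction. The edgeR adjusted p was 0.95 for Ppargc1a and 0.971 for Vegfa, beside 0.00742% of genes called by edgeR (1 gene, and 30 by DESeq2) and 10.9% with groups that did not overlap. The difference between the training effects of the lines, HRTT over HRT less LRTT over LRT, was 0.24 (SE 0.399, 95% interval -0.63 to 1.12) for Ppargc1a and -0.49 (SE 0.531, -1.66 to 0.68) for Vegfa. Without LRTT replicate 1 the Vegfa value was -0.04, and without HRTT replicate 1 the Ppargc1a value was -0.03. The edgeR adjusted p of this difference was 0.975 and 0.953, and 0% of genes were called, with 502 at an unadjusted p under 0.05 and 2 called by DESeq2. As a fold, the interval for Vegfa ran from 0.317 to 1.61, so differences between the lines of these sizes lay within the interval.

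The training effect was also averaged over both lines, in which its direction was opposite for each gene, so that the line values partly cancel. The mean training effect on the log2 scale was -0.05 (SE 0.2, 95% interval -0.49 to 0.39) for Ppargc1a and 0.04 (SE 0.265, -0.55 to 0.62) for Vegfa. As folds these intervals ran from 0.714 to 1.31 for Ppargc1a and from 0.683 to 1.54 for Vegfa. The edgeR adjusted p was 1 for both, and 0% of genes were called, with 437 at an unadjusted p under 0.05 and 4 called by DESeq2. An exact permutation test over the 12 rats, with training labels exchanged within each line, gave a two-sided p of 0.82 for Ppargc1a and 0.99 for Vegfa. The mean effect of line, HRT and HRTT over LRT and LRTT, was 0.08 (SE 0.2, 95% interval -0.36 to 0.51) for Ppargc1a and 0.11 (SE 0.265, -0.48 to 0.69) for Vegfa. The edgeR adjusted p was 0.912 and 0.906, beside 0.0668% of genes called by edgeR (9 genes, and 71 by DESeq2), and the exact permutation test within training states gave a two-sided p of 0.76 and 0.655. The smallest p that these 400 arrangements can give is 0.005. With 1 library left out, the mean training effect turned direction in 4 of 12 cases for each gene, and the mean line effect in 4 of 12 for Ppargc1a and 3 of 12 for Vegfa. The replicate block also turned the mean training effect of Vegfa, to -0.02.

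A number of 1 to 3 stands in the column headings of the counts, with a meaning not given in the sources used here. It was 2 in all HRT and LRTT libraries and 3 in all HRTT libraries, whereas LRT held 1 library with 3 and 2 with 1. Neither line had a number in common between its trained and untrained rats, and neither did HRT with LRT or HRTT with LRTT. In these 4 comparisons the groups and this number therefore cannot be told apart. LRTT and HRT share the number, and between them the log2 difference was -0.13 (SE 0.283, 95% interval -0.75 to 0.50) for Ppargc1a and -0.07 (SE 0.375, -0.90 to 0.76) for Vegfa. Without HRT replicate 1 the Ppargc1a value was 0.105, and the Vegfa value was 0.215 without LRTT replicate 3 and -0.52 without LRTT replicate 1. The edgeR adjusted p was 0.934 and 0.975, beside 0.0223% of genes called by edgeR (3 genes, and 40 by DESeq2) and 10.4% with groups that did not overlap. These comparisons share groups with each other, so their values for a gene are not independent.

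**Figure D2:**
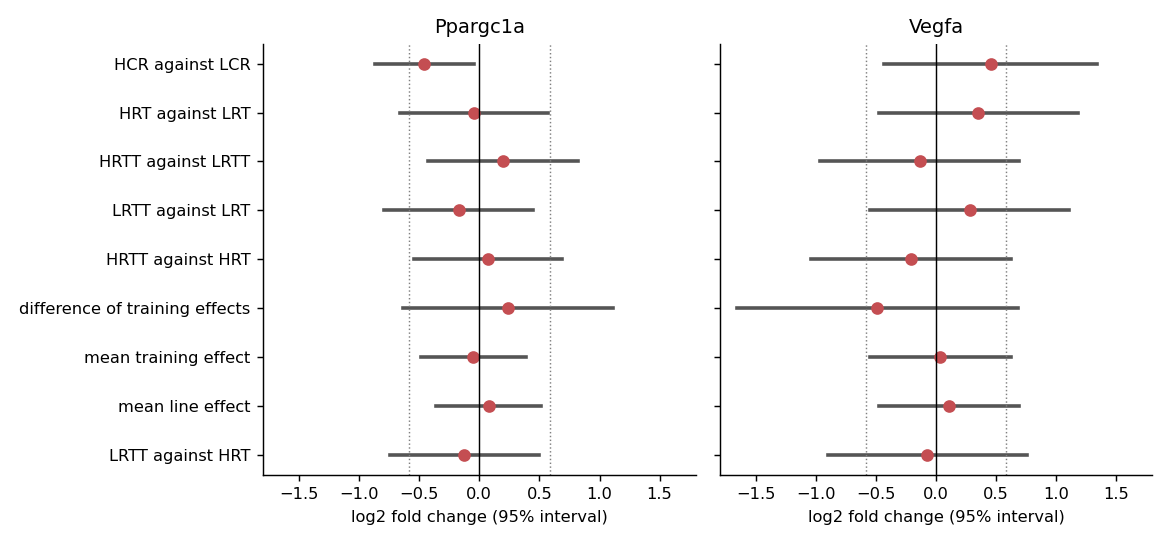
Log2 fold change (point) with its 95% interval (bar) for Ppargc1a (left) and Vegfa (right) in 9 comparisons fitted with edgeR. The solid line marks no difference and the dotted lines a fold change of 1.5 in either direction. With all libraries and before adjustment over all genes, Ppargc1a in HCR against LCR is the 1 interval that leaves out 0. Its unadjusted edgeR p rose as high as 0.108 with 1 library left out.

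Within the responder experiment the 2 genes varied far more between rats of a group than between groups. Differences between group means made up 4.59% of the variation of log2 CPM for Ppargc1a and 7.09% for Vegfa, against a median of 26.3% over all tested genes. With 4 groups of 3, 27.3% is the share that independent rats without group differences give on average. In HCR and LCR the share was 64.6% for Ppargc1a and 19.96% for Vegfa, against a median of 13.8% over tested genes and 20% for independent rats, and Ppargc1a stood at the 93.3rd percentile. The within-group SD of log2 CPM was 0.39 for Ppargc1a, against a median of 0.18 over the 500 tested genes nearest in abundance, the 91.4th percentile of those genes. For Vegfa it was 0.52 against 0.18, the 95.6th percentile. Counting error in a library was 3.40 to 5.48% for Ppargc1a and 0.831 to 1.86% for Vegfa over all 18 rats, while the CV between rats of a responder group ran from 25 to 32.04% and from 27.2 to 48.9%. In HCR and LCR, Vegfa was again wide, at 0.64 against 0.26 (94.6th percentile), and Ppargc1a was not, at 0.21 against 0.22 (45.8th percentile). The Vegfa share and SD in HCR and LCR include LCR replicate 2, its lowest library, and were not computed without it.

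Ppargc1a and Vegfa were correlated among the 12 responder rats. HRT replicate 1, HRTT replicate 1 and LRTT replicate 1 had the highest level of both genes in their groups, and LRT replicate 2 had the highest of both in LRT. The lowest level of both fell on the same rat in HRT, LRT and LRTT, and HRTT was the group in which it did not. With each gene taken as its deviation from the group mean of log2 CPM, Pearson's r was 0.918 and Spearman's rho 0.867, and 11 of 12 rats deviated in the same direction for both genes. An exact permutation of the pairings within groups gave a two-sided p of 0.00154 for r and 0.00232 for rho, and 0.00926 for r after Benjamini-Hochberg adjustment over 6 relations. With the replicate number taken out as a block as well, r was 0.883, with a permutation p of 0.0116 and 0.0694 after the same adjustment. The relation thus did not pass the adjusted test with the block. The permutation within groups does not keep the block, so the p with the block is not exact. The fitted slope of Vegfa on Ppargc1a was 1.22 on the log2 scale, and single rats lay on both sides of that line. Without the 2 rats farthest from the median of Ppargc1a, HRT replicate 1 and HRTT replicate 1, r was 0.898. With each rat left out in turn, r ranged from 0.900 to 0.943.

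Over the 6 HCR and LCR rats the relation could not be settled. The r of the deviations was 0.345 and rho 0.314, with an exact permutation p of 0.528 for r, 0.71 after adjustment over the 6 relations, and the smallest p that 36 pairings allow is 0.0278, which could not pass after adjustment over 6 relations. With library totals alone in place of TMM, r was 0.662. Without the 2 rats farthest from the median, HCR replicate 1 and LCR replicate 3, r was -0.580, and without LCR replicate 2 it was 0.783, so the value rests on single libraries. HCR rats had the same order for both genes, and LCR replicate 2 paired the lowest Vegfa of all rats with a Ppargc1a level near its group mean. Whether r differs between the experiments was not tested.

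**Figure D3:**
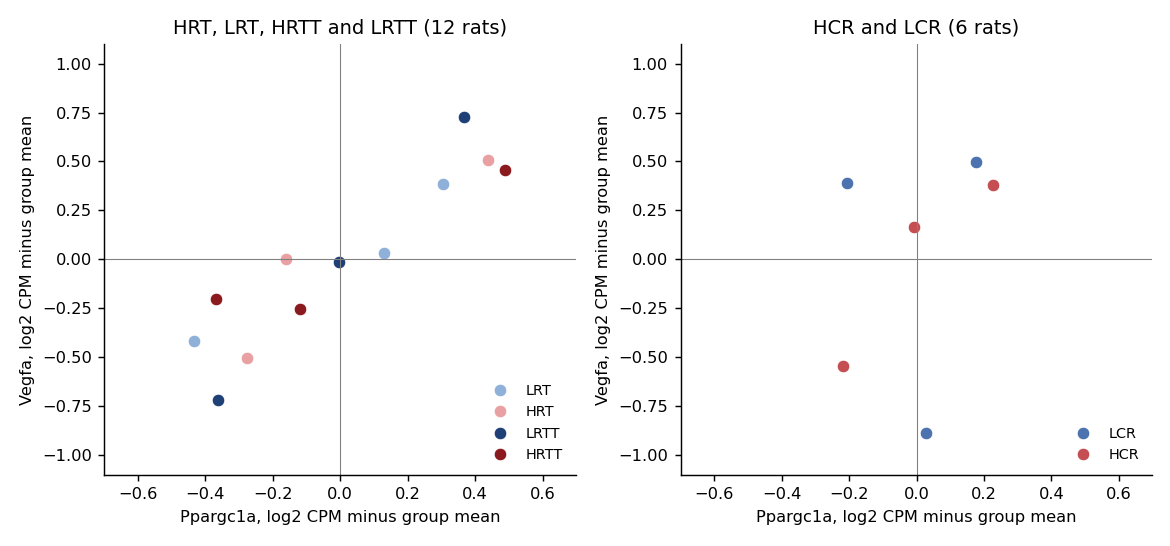
Deviation of each rat from its group mean for Ppargc1a (horizontal) and Vegfa (vertical), both on the log2 CPM scale, for the 12 responder rats (left) and the 6 HCR and LCR rats (right). The responder rats lie along a rising line with r = 0.918. The HCR and LCR rats gave r = 0.345, which ran from 0.0194 to 0.783 with single rats left out.

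The responder libraries also fell into 2 sets on a first principal component that was computed from 500 highly variable genes, Ppargc1a and Vegfa left out, and held 50.7% of their variation. HRT replicate 1, HRTT replicate 1, LRT replicate 2, LRTT replicate 1 and LRTT replicate 2 scored from -40.6 to -17.5. The other 7 scored from 14.9 to 24.4, and no group of 3 lay on 1 side alone. Ppargc1a was at 13.6 to 21.7 CPM in the first set and 10.6 to 16.8 CPM in the second. Vegfa was at 187 to 312 CPM in the first set and 114.5 to 206.5 CPM in the second. High levels of both genes thus went with 1 of the sets. Among the 7 libraries of the second set alone, r of the levels was 0.642 and rho 0.75, with an exact permutation p of 0.116 and 0.0663, so the relation did not pass the test within that set. Without the 2 of these 7 farthest from the median of Ppargc1a, r was 0.956, on only 5 rats and with no test. No correlation was computed over the 5 rats of the first set, so the relation within that set was not tested. In the responder rats the library total had no relation to either gene that passed the test, with r of -0.157 for Ppargc1a (exact permutation p of 0.71) and -0.278 for Vegfa (0.686). In HCR and LCR the r with the library total was 0.631 for Ppargc1a (exact permutation p of 0.306) and 0.435 for Vegfa (0.333). Without HCR replicate 1 and LCR replicate 2, the 2 rats farthest from the median of Vegfa, the Vegfa value was 0.971. With the replicate block the responder values were 0.0403 for Ppargc1a and -0.0728 for Vegfa. The HCR and LCR values with the block were 0.9998 for Ppargc1a and -0.356 for Vegfa. In 2 groups the block makes the remaining deviations of HCR and LCR rats of the same replicate number mirror each other, so a high r arises easily. The Ppargc1a value had a permutation p of 0.0278, the smallest possible, and 0.0833 after adjustment over 6 relations. The permutation breaks the mirroring, so this p does not test the blocked relation. The replicate numbers also did not pair HCR with LCR.

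**Figure D4:**
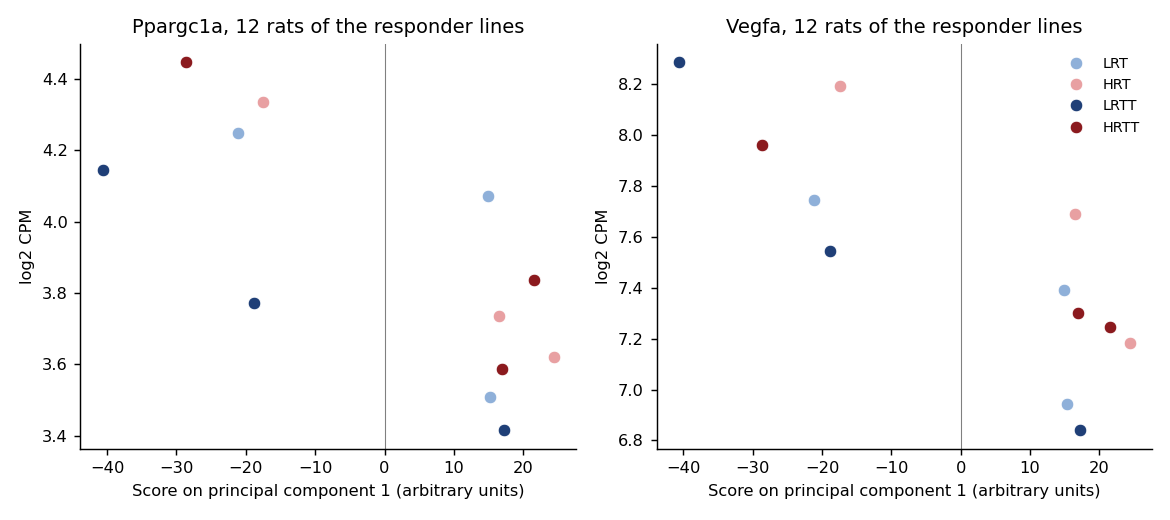
Log2 CPM of Ppargc1a (left) and Vegfa (right) against the score on the first principal component of other genes, for the 12 responder rats by group. The 5 libraries with scores below 0 lie at 13.6 to 21.7 CPM for Ppargc1a and 187 to 312 CPM for Vegfa, and the 7 above 0 at 10.6 to 16.8 and 114.5 to 206.5 CPM.

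Many other genes shared these patterns. Over the levels of the 12 responder rats, Vegfa ranked 41st of 13477 genes by its correlation with Ppargc1a (r = 0.843), and Ppargc1a ranked 216th by its correlation with Vegfa. The correlation with Ppargc1a was at least 0.8 for 121 genes and at most -0.8 for 32, and with Vegfa for 367 and 141. On deviations from the group means these numbers were 566 and 232 for Ppargc1a and 771 and 411 for Vegfa. These points share libraries, so the ranks are a description. By levels, the gene most like Ppargc1a was ENSRNOG00000050289 (r = 0.940, at 20.1 to 26.5 CPM). The most opposed was ENSRNOG00000000611 (r = -0.914, at 222 to 351 CPM). Over the 6 HCR and LCR rats their r with Ppargc1a was 0.0496 and -0.193. By levels, the gene most like Vegfa was ENSRNOG00000006067 (r = 0.9825, at 26.1 to 54.7 CPM). The most opposed was ENSRNOG00000005046 (r = -0.937, at 51.1 to 149 CPM). Over the HCR and LCR rats these stood at 0.801 and -0.971 with Vegfa, on 6 rats and with no test. On deviations, other genes were the extremes over the 12 responder rats, at 0.972 and -0.9635 for Ppargc1a and 0.991 and -0.993 for Vegfa. The identifiers are not paired with symbols in the files.

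The neighbours of Ppargc1a and Vegfa in their pathways could be seen only where the authors' 5 tables of called genes give a pooled level per group, in a unit not named there. A row exists only for a gene the authors called, so a missing row says nothing about its level, and these levels carry no SD or test. As a share of the 32882 genes counted, the tables name 1.32% for HCR and LCR, 0.73% for HRT and LRT, 0.779% for HRTT and LRTT, 0.788% for LRTT and LRT and 0.283% for HRTT and HRT, against which the counts below stand. The lists hold genes known in muscle, while many of the genes counted were too low to test. Neither Ppargc1a nor Vegfa had a row. The same was so for the PGC-1 family (0 of 3), its partner factors (0 of 11), the VEGF ligands (0 of 6), the VEGF receptors (0 of 5) and the oxygen-sensing genes (0 of 8). Of 15 regulators of PGC-1alpha, 2 had a row, both for HCR and LCR. Prkaa2, a catalytic subunit of the AMP-activated kinase that acts upstream of PGC-1alpha, was at 108.7 in LCR and 55.4 in HCR. Nrip1, a corepressor that opposes PGC-1alpha targets, was at 9.36 in LCR and 5.16 in HCR.

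Among 24 mitochondrial and oxidative genes, 1 had a row in each of 2 comparisons. Lpl, which releases fatty acids from lipoproteins at the capillary wall, was at 69.4 in LCR and 144.9 in HCR. Pdk4, which restrains glucose oxidation and is a known PGC-1alpha target, was at 107.7 in LRT and 54.7 in LRTT. Of 12 endothelial markers, Plvap was at 2.87 in LCR and 5.52 in HCR, and Vwf was at 3.09 in LRT and 1.91 in LRTT in 1 table and at 3.09 in LRT and 1.97 in HRT in another. Of 8 hypoxia targets, Ddit4 was at 7.15 in LRT and 3.24 in HRT. Slow-fibre genes were the list with most rows. For HCR and LCR 7 of 9 had one, all higher in HCR, and for LRTT and LRT 7 of 9, all higher in LRTT. The largest ratio of LRTT to LRT was that of the slow troponin Tnnt1, at 98.1 in LRT and 496.2 in LRTT. Next was the slow myosin Myh7, at 41.6 and 209.5. For HRTT and HRT 5 of 9 had a row, all higher in HRTT, and for HRT and LRT 1 of 9, Casq2, at 14.6 in LRT and 6.75 in HRT. No fast-fibre gene (0 of 9) and no general muscle-fibre marker (0 of 11) had a row.

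Markers of other cell types had rows as well. For HCR and LCR, 3 of 5 adipocyte, 3 of 4 Schwann cell, 2 of 3 blood and 2 of 5 smooth muscle and pericyte genes were listed, all at a higher pooled level in HCR. For LRTT and LRT, 4 of 5 adipocyte genes were lower and 3 of 4 Schwann cell genes higher in LRTT. For HRT and LRT, 3 of 5 adipocyte genes and 1 of 4 Schwann cell genes were lower in HRT. For HRTT and HRT, 2 of 4 Schwann cell genes were higher in HRTT, and for HRTT and LRTT 3 of 4 were lower in HRTT. Of 4 fibroblast genes, Col1a1 alone had rows, at 9.26 in LCR and 21.5 in HCR, 30.6 in LRT and 61.1 in LRTT, and 60.2 in LRTT and 27.3 in HRTT. Of 6 macrophage and leukocyte genes, Lyz2 alone had a row, at 28.9 in LRTT and 17.2 in HRTT. The part of cell and fibre make-up in the levels of Ppargc1a and Vegfa was not tested, and in whole muscle fewer cells of a type and less RNA per cell cannot be told apart.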

How the data were processed

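RNA-seq was made from gastrocnemius muscle of 18 rats, read as 50 bases from 1 end. The authors deposited 2 tables of raw counts per Ensembl gene, made per the file headers with featureCounts 1.6.4 on Ensembl release 91 of Rnor_6.0, strand setting 0. Strand was thus ignored, and the -O option in the same headers gave a read to every gene it overlapped, so overlapping or antisense genes share counts. The methods name Tophat2, while the headings carry alignment names of another form. The authors also deposited 5 tables of called genes, whose signal (a level per group, unit not named) was used. Their fold changes, p-values and q-values, which hold the authors' comparisons, were not used.

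Groups came from the sample labels. Replicates are separate rats, and no 2 libraries of a group agreed within sampling noise. The counts went into edgeR 4.0.16 (R 4.3.3) with filterByExpr (count minimum 10), TMM, and a robust quasi-likelihood fit with a term per group, of HCR and LCR alone and of the other 12 libraries together. Benjamini-Hochberg adjustment ran over all tested genes, and calls needed a fold change above 1.5 and an adjusted p under 0.05. Log2 CPM used a prior count of 2. Intervals of counts are exact Poisson at 95% and cover counting error only. DESeq2 1.42.0 was an alternative. Exact tests used Python 3.11.15 with numpy 2.4.6 and scipy 1.17.1. The test code was tried on simulated data. No count column was left unmapped.

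The replicate numbers of the labels were checked for pairing through the correlation of deviations from group means over all tested genes. All 3 numbers correlated above 0.1 for HRT with HRTT (0.475, 0.26 and 0.383) and for HRT with LRTT (0.505, 0.119 and 0.309), and not for the other pairs of groups. The numbers were not used as a block in the fits reported.

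The genes and lists were chosen with earlier results of these data known. The planned rule for named genes was both members throughout, the genes of 18 lists by p, and those most like a member. The part by p could not be applied. The reference tables pair 0 of the identifiers in the count tables with symbols, so the lists were not tested in the counts, and listed genes are named only where the tables of called genes hold them.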

Additional observations from a re-analysis of the deposited data

How the results depend on the processing

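The 18 fitted values (2 genes in 9 comparisons) were recomputed 326 times with another scaling, filter, tool or set of samples. None of these passed the thresholds, the lowest adjusted p was 0.489 (Ppargc1a, HCR against LCR), and 32 changed direction, in 13 of the results. With the replicate block, the Vegfa mean training effect was -0.022. In HCR and LCR r was then -0.376, from deviations that mirror each other. In the responder rats r was 0.883 with the block, with an adjusted permutation p of 0.0694, which is not exact, in place of 0.00926. The block changed no other call. With library totals alone, the Vegfa mean training difference of the exact test was -0.0029 and r in HCR and LCR was 0.662. All mean levels moved by less than 1 SD with library totals alone. The deviation-based correlations of the like genes, and the block on HRT and HRTT alone, were added after seeing the data, and no sign changed.

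With each library left out in turn, Ppargc1a ran from -0.581 to -0.363 in HCR against LCR, from -0.282 to 0.117 in HRT against LRT, from -0.0628 to 0.414 in HRTT against LRTT, from -0.379 to -0.00429 in LRTT against LRT, from -0.202 to 0.317 in HRTT against HRT and from -0.341 to 0.105 in LRTT against HRT (log2). Its difference of training effects ran from -0.0252 to 0.494, its mean training effect from -0.189 to 0.0706 and its mean line effect from -0.0502 to 0.188. Vegfa ran from 0.114 to 0.685 in HCR against LCR, from 0.0757 to 0.57 in HRT against LRT, from -0.423 to 0.318 in HRTT against LRTT, from -0.166 to 0.567 in LRTT against LRT, from -0.46 to 0.0764 in HRTT against HRT and from -0.522 to 0.215 in LRTT against HRT. Its difference of training effects ran from -0.775 to -0.0379, its mean training effect from -0.185 to 0.179 and its mean line effect from -0.0361 to 0.337. In the exact tests these ranges were -0.176 to 0.0562 (training) and -0.0554 to 0.159 (line) for Ppargc1a, and -0.178 to 0.184 and -0.0423 to 0.319 for Vegfa. The cause of the reversals was not tested. A group left with 2 rats was assumed to vary like the others. Counting error was at most 5.48% of a level for either gene.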
